A study of Mus musculus with 10 samples.

Results

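The clones compared here are those that filled the spleens of leukaemic NSG mice and of leukaemic Ptprca mice. A clone was included when its barcode reached 100 CPM (the deposited scaling of barcode reads, on which 100 CPM is 0.01% of a sample's reads) in at least 1 of the 4 spleen samples. This rule took 1309 of the 19704 listed barcodes. The clones just inside the limit were BFP_Barcode_12454 and mCHERRY_2_Barcode_88284, whose highest spleen values were 100.02 and 100.05 CPM, and those just outside were mCHERRY_2_Barcode_175923 and BFP_Barcode_35307 at 99.7 and 99.3 CPM. Of the 1309 clones 821 carried an mCHERRY barcode, 464 a BFP barcode and 24 a GFP barcode.

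The study followed a mouse MLL-AF9 leukaemia through retransplantation. Progenitors of the blood carrying the c-Kit receptor, grown with the cytokines IL-3, IL-6 and SCF, had received SPLINTR libraries. Each integrated DNA barcode of such a library marks a cell and all of its descendants, and the prefix of a barcode's name gives its library and fluorescent colour. Leukaemia cells of 2 donor mice were then given to NSG or to Ptprca recipients (written PTPRCA in the sample names), and barcodes were read from genomic DNA of sorted viable cells at disease. The 4 spleen samples were thus NSG and PTPRCA of donor 1 and NSG and PTPRCA of donor 2, a group being 2 samples from different donors. The sources used here do not give the age or number of recipients behind a sample. A difference between strains therefore cannot be told apart from one between single recipients. The values are barcode shares alone, and hold no marker by which the tissue or cell type could be checked.

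MLL-AF9, a fusion of the Kmt2a and Mllt3 genes, turns myeloid progenitors into leukaemia cells that can be passed from mouse to mouse. NSG mice lack T, B and natural killer cells and also carry defects of the innate immune system, whereas Ptprca mice carry an allele of Ptprc, the gene of the leukocyte surface protein CD45, and have a working immune system. The spleen is a site of blood formation in mice and fills with leukaemia cells as the disease advances. A host can shape the leukaemia it carries in several ways, by how many transplanted cells settle, by how fast each clone divides and by immune removal of cells, and barcode shares give the sum of these.

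The spleen samples held 5634747 to 8606343 reads, and a count of 0 allowed up to 3 reads, or 0.349 to 0.532 CPM. Each deposited value was the mean of 2 sequenced libraries, or of 3 for NSG spleen of donor 1. In donor 2 the libraries of a sample agreed closely. Among clones of 100 to 1000 CPM whose value could be split into the reads of each library, the median spread between libraries, on the log2(CPM + 10) scale, was 0.044 in NSG spleen (401 clones) and 0.14 in PTPRCA spleen (318 clones), and 0 clones were over 4-fold apart. In donor 1 they did not. In its PTPRCA spleen the median spread was 1.23, and 79 of 262 clones (30.2%) were over 4-fold apart between the libraries. In its NSG spleen only values of 10 to 50 CPM could be split over the 3 libraries. There the median spread was 1.75, and 160 of 562 clones were absent from at least 1 library. In PTPRCA spleen of donor 1 these values were 0.973 and 14 of 396 in the same range. Both measures rise with the number of libraries, so that 3 libraries and 2 are not compared on equal terms. The labels' protocols describe lysates split into technical replicates. They do not say whether the libraries averaged here are those replicates or come from different recipients. The source of the spread was not tested. Results of donor 1 therefore stand beside those of donor 2 throughout, and the part of this spread in them was tested only where stated.

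The first question was how many clones each spleen held and how evenly reads were spread over them. More clones reached 100 CPM in NSG than in PTPRCA spleen. There were 522 in NSG and 356 in PTPRCA spleen of donor 1, and 525 and 406 in donor 2, a mean of 524 ± 2.12 against 381 ± 35.4 (SD, n = 2). The ratio was 1.47 in donor 1 and 1.29 in donor 2, and the mean log2 difference was 0.46 (two-sided exact permutation test exchanging strains within donors, p = 0.5). With 2 donors this test cannot give a p below 0.5, and it therefore cannot separate any of the strain differences reported here from chance.

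The clones added in NSG spleen stood in the middle and low ranks, and not at the top. Clones holding 0.1% to 1% of reads numbered 128 in NSG and 81 in PTPRCA spleen of donor 1, and 114 and 78 in donor 2. They took 37.1% and 24.9% of reads in donor 1 and 27.5% and 20.8% in donor 2. Clones of 1% to 10% went the other way, taking 17.0% of reads in NSG and 27.6% in PTPRCA spleen of donor 1, and 13.7% and 27.7% in donor 2. To account for 90% of reads took 215 clones in NSG and 105 in PTPRCA spleen of donor 1, and 213 and 114 in donor 2.

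Diversity was summarised as the number of equally large clones that would give the same Shannon entropy. This effective number was 76.2 in NSG and 46.1 in PTPRCA spleen of donor 1, and 46.3 and 30.6 in donor 2. It was 1.58-fold higher in NSG on average, a log2 difference of 0.66 ± 0.091 (SD, n = 2, exact permutation p = 0.5). Pielou's evenness, the entropy of clones of at least 100 CPM as a share of its maximum, was 0.653 and 0.624 in donor 1 and 0.579 and 0.538 in donor 2, a mean difference of 0.035 (exact permutation p = 0.5). NSG was the higher in both donors by both measures, but the donors differed as much as the strains did: the effective number of NSG spleen in donor 2 lay next to that of PTPRCA spleen in donor 1. Over clones of at least 1000 CPM the donors had opposite signs in evenness, with a mean difference of 0.0015 (exact permutation p = 1).

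The largest clone bore on these values. GFP_Barcode_52804 was the largest clone of all 4 spleens, with 30.9% of NSG and 21.1% of PTPRCA reads for donor 1, and 42.2% and 39.1% for donor 2. Clones ranked 2 to 10 together took 18.0% and 40.9% of reads in donor 1, and 15.7% and 29.7% in donor 2. NSG spleens thus had the larger first clone and the smaller followers in both donors. With the largest clone left out, the effective number was 216 in NSG and 66.8 in PTPRCA spleen of donor 1, and 235 and 91.7 in donor 2, a 2.88-fold mean ratio. The inverse Simpson number, which weights the largest clones most, went the other way, with NSG below PTPRCA for either donor, at 9.79 against 12.2 and at 5.46 against 5.91.

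The second question was whether the same clones led in both strains. Among the 10 largest clones, 5 were shared between NSG and PTPRCA spleen in each donor. Among the 20 largest, 8 were shared in donor 1 and 5 in donor 2, that is 40% and 25% of each list. The clones that led in both strains of donor 1 were GFP_Barcode_52804, GFP_Barcode_52357, mCHERRY_2_Barcode_746646, mCHERRY_2_Barcode_86777 and mCHERRY_2_Barcode_162583. In donor 2 they were GFP_Barcode_52804, mCHERRY_2_Barcode_311488, mCHERRY_2_Barcode_96127, mCHERRY_2_Barcode_187286 and mCHERRY_2_Barcode_344155. Some of these held nearly the same share in both hosts. mCHERRY_2_Barcode_86777 had 1.59% of NSG and 1.66% of PTPRCA spleen in donor 1, and mCHERRY_2_Barcode_311488 had 4.40% and 4.73% in donor 2.

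Other leading clones were among the 10 largest in 1 strain only. In donor 1, mCHERRY_2_Barcode_663729 ranked 2 in NSG spleen with 5.11% and 103 in PTPRCA spleen with 0.0876%. BFP_Barcode_211487 ranked 5 in NSG with 1.67% and 158 in PTPRCA with 0.0466%. In the opposite direction, mCHERRY_2_Barcode_670353 held 1.28% of PTPRCA spleen at rank 9 and 0.00405% of NSG spleen at rank 853. GFP_Barcode_98919 ranked 3 in PTPRCA spleen with 8.23% and 26 in NSG with 0.511%. For this last clone marrow went the other way, with 2.99% in NSG and 0.965% in PTPRCA.

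Donor 2 also had clones that were among the 10 largest in 1 strain only. mCHERRY_2_Barcode_63551 held 1.07% of NSG spleen at rank 7 and 0.000369% of PTPRCA spleen, where its rank was 1297. BFP_Barcode_97773 ranked 3 in PTPRCA spleen with 7.54% and 279 in NSG spleen with 0.0353%. GFP_Barcode_52357, which led in both strains of donor 1, held 1.66% of PTPRCA spleen at rank 6 and 0.0246% of NSG spleen at rank 329. mCHERRY_2_Barcode_529484 had 1.81% in NSG spleen at rank 5 and 0.185% in PTPRCA spleen at rank 51. Each of these clones differed in the same direction in marrow.

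Over all clones of at least 100 CPM in 1 or both spleens of a donor, ranks in NSG and PTPRCA spleen were only weakly related. Spearman's rho was 0.11 over 651 clones in donor 1 and 0.18 over 663 clones in donor 2. These are descriptions across clones, which are not replicates, and the choice of clones high in either spleen lowers them. Over the 227 and 268 clones that reached 100 CPM in both spleens, rho was 0.39 and 0.36. The same measure between spleen and marrow of the same strain and donor was 0.64 and 0.60 for the NSG mice, 0.65 and 0.68 for the PTPRCA mice, and between the strains in marrow it was 0.51 and 0.45. The shared fraction of reads (Bray-Curtis similarity of clone shares) between the strains in spleen was 0.480 in donor 1 and 0.670 in donor 2, and 0.369 and 0.476 without GFP_Barcode_52804. Between spleen and marrow of the same strain it ranged from 0.626 to 0.788, and from 0.568 to 0.700 without that clone.

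Clones were next compared by size of difference within each donor. A clone was called when log2(CPM + 10) differed by more than 2, that is over 4-fold, a scale that understates the change of rare clones. Of 651 clones in donor 1, 289 were over 4-fold higher in NSG (44.4%) and 139 in PTPRCA spleen (21.4%). Of 663 clones in donor 2, 262 were over 4-fold higher in NSG (39.5%) and 130 in PTPRCA spleen (19.6%). These counts follow in large part from the choice of clones, since 295 clones of donor 1 and 257 of donor 2 entered through NSG spleen alone, and 129 and 138 through PTPRCA spleen alone. Among the 227 and 268 clones of at least 100 CPM in both spleens, a set chosen after the data were seen, far fewer were over 4-fold apart. There 36 were higher in NSG (15.9%) and 29 in PTPRCA spleen (12.8%) of donor 1, and 46 (17.2%) and 24 (8.96%) in donor 2. The median log2 difference over these clones was 0.35 and 0.23. No test over animals is possible within a donor. In marrow, which the calls did not use, 177 of the 289 and 135 of the 262 were also over 4-fold higher in NSG, and 0 and 4 were over 4-fold higher in PTPRCA. Of the clones higher in PTPRCA spleen, 88 of 139 and 79 of 130 were over 4-fold higher in PTPRCA marrow, with 4 and 1 in the opposite direction. The share over 4-fold apart in marrow among all 651 and 663 clones was not counted. These marrow counts are therefore not shown to be particular to the called clones.

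The calls were also set against the spread between sequenced libraries. In donor 2, 240 of 254 NSG calls and 123 of 128 PTPRCA calls with library values were over 4-fold for every pair of libraries. In donor 1 NSG spleen entered as the mean of its libraries, and 256 of 289 NSG calls and 98 of 129 PTPRCA calls held against each PTPRCA library.

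Many of the clones with the largest differences were listed at 0 or at a few CPM in 1 strain. In donor 1, BFP_Barcode_252027 stood at 5132 CPM in NSG spleen and was listed at 0 in PTPRCA spleen. It was thus at least 11067-fold higher in NSG against a limit of 3 reads. This limit covers the PTPRCA count alone, and the NSG value could not be split by library. BFP_Barcode_112923 of the same donor stood at 6349 CPM in NSG and 2.38 CPM in PTPRCA spleen. In the other direction mCHERRY_2_Barcode_361444 stood at 2.26 CPM in NSG and 6554 CPM in PTPRCA spleen, where its libraries gave 6437 and 6671 CPM. This clone was rare in both marrows, at 34.8 CPM in NSG and 46.5 CPM in PTPRCA. In donor 2, mCHERRY_2_Barcode_348373 stood at 4849 CPM in NSG spleen and was listed at 0 in PTPRCA spleen, at least 9108-fold higher. In the other direction the largest difference of donor 2 was that of BFP_Barcode_97773, which was well detected in both strains, at 353 CPM in NSG and 75378 CPM in PTPRCA spleen. It was followed by mCHERRY_2_Barcode_377112, at 5.53 and 1562 CPM.

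The third question concerned clones restricted to a strain, defined as those with at least 100 CPM in a spleen and less than 1 CPM in the spleen of the other strain of the same donor. NSG spleens held more of them. In donor 1, 79 of 522 clones were restricted to NSG (15.1%) and 37 of 356 to PTPRCA spleen (10.4%). In donor 2, 58 of 525 clones were restricted to NSG (11.0%) and 11 of 406 to PTPRCA spleen (2.71%). The mean was 68.5 ± 14.8 in NSG and 24 ± 18.4 in PTPRCA (SD, n = 2), a ratio of 2.14 in donor 1 and 5.27 in donor 2 (exact permutation p = 0.5 on the log2 scale). Of the restricted clones 64 of 79, 24 of 37, 45 of 58 and 6 of 11, in the same order, were listed at 0 in the other strain.

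Restricted clones were small and held few of the reads. They took 3.61% of reads in NSG and 1.71% in PTPRCA spleen of donor 1, and 2.38% and 0.382% in donor 2. Their median was 198 and 260 CPM in donor 1 and 186 and 243 CPM in donor 2, and 0 of them reached 1% of reads. Most reads lay in clones of at least 100 CPM in both spleens, which took 80.9% of NSG and 87.6% of PTPRCA reads in donor 1, and 85.1% and 93.4% in donor 2. Reaching this level in both spleens does not mean equal shares, as the leading clones above show.

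In NSG spleen of donor 1 the largest restricted clones were BFP_Barcode_252027, mCHERRY_2_Barcode_1003391 (3542 CPM), BFP_Barcode_250490 (2687 CPM), mCHERRY_2_Barcode_4225 (2525 CPM) and mCHERRY_2_Barcode_805948 (2101 CPM). All 5 were in NSG marrow of that donor, at 31.1 to 479 CPM, and at 0.137 CPM or less in PTPRCA marrow. In PTPRCA spleen of donor 1 mCHERRY_2_Barcode_164271 was the largest at 2486 CPM, with 1242 and 3730 CPM in its libraries, but its marrow levels were alike, at 60.9 CPM in NSG and 61.4 CPM in PTPRCA. mCHERRY_2_Barcode_364642 (1299 CPM in PTPRCA spleen) was listed at 0 in both NSG tissues and stood at 3067 CPM in PTPRCA marrow.

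In donor 2 the largest clones restricted to NSG spleen were mCHERRY_2_Barcode_348373, GFP_Barcode_40977 (2691 CPM), BFP_Barcode_215389 (1368 CPM), mCHERRY_2_Barcode_862555 (1309 CPM) and mCHERRY_2_Barcode_16657 (863 CPM). All 5 were listed at 0 in PTPRCA marrow and stood at 136 to 11609 CPM in NSG marrow. Those restricted to PTPRCA spleen were smaller, led by mCHERRY_2_Barcode_872557 (999 CPM), GFP_Barcode_44375 (589 CPM), BFP_Barcode_29107 (529 CPM) and GFP_Barcode_69276 (428 CPM).

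These clones were also read in marrow of the same donor and strain, which may come from the same recipients. Of the clones restricted to NSG spleen, 65 of 79 in donor 1 and 46 of 58 in donor 2 were also below 1 CPM in PTPRCA marrow, and 0 in either donor reached 100 CPM there. Of those restricted to PTPRCA spleen, 21 of 37 and 8 of 11 were below 1 CPM in NSG marrow, and 1 in donor 1 reached 100 CPM. The share of all spleen clones below 1 CPM in the other strain's marrow was not counted. These counts are therefore not shown to be particular to restricted clones. Presence in the marrow of the same strain was less complete. Of the clones restricted to NSG spleen 34 of 79 (43.0%) and 19 of 58 (32.8%) reached 100 CPM in NSG marrow. Of all clones of at least 100 CPM in NSG spleen, 76.6% and 73.7% did. Of those restricted to PTPRCA spleen 19 of 37 (51.4%) and 7 of 11 (63.6%) reached 100 CPM in PTPRCA marrow. Of all clones of at least 100 CPM in PTPRCA spleen, 81.7% and 81.0% did. In the sequenced libraries, all 55 NSG-restricted and all 11 PTPRCA-restricted clones of donor 2 with library values reached 100 CPM in both libraries. In PTPRCA spleen of donor 1, 23 of 36 did.

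Clones restricted to the 2 strains differed in their level before transplantation, a measure the choice of clones did not use. Those restricted to NSG spleen had been rare in the donor's baseline sample. Their median baseline level was 12.7 CPM in donor 1 and 20.9 CPM in donor 2, and 4 of 79 (5.06%) and 1 of 58 (1.72%) had reached 100 CPM. Those restricted to PTPRCA spleen had a median of 167 CPM in donor 1 and 263 CPM in donor 2, and 23 of 37 (62.2%) and 6 of 11 (54.5%) had reached 100 CPM. Of the NSG spleen clones that were not restricted, 29.6% in donor 1 and 51.6% in donor 2 had done so, and of the PTPRCA spleen clones that were not restricted, 45.5% and 60.8%. These are counts over clones within 2 donors, with no test over animals.

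The same order held over the wider groups. In donor 1 the median baseline level was 32.4 CPM for clones over 4-fold higher in NSG spleen, 69.4 CPM for clones within 4-fold and 141 CPM for clones over 4-fold higher in PTPRCA spleen. In donor 2 it was 58.8, 132 and 144 CPM. Within mCHERRY clones alone the medians were 34.6, 91.3 and 167 CPM in donor 1 and 80.9, 155 and 189 CPM in donor 2. BFP clones did not follow it, with 34.0, 44.0 and 28.5 CPM in donor 1 and 31.0, 68.7 and 59.0 CPM in donor 2. Of the BFP clones restricted to NSG spleen, 2 of 57 in donor 1 and 0 of 37 in donor 2 had reached 100 CPM at baseline.

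The fourth question was how the barcode libraries were divided between the strains. By reads the division differed between the donors. BFP clones took 22.0% of NSG and 6.39% of PTPRCA spleen in donor 1, and 6.18% and 11.4% in donor 2, so that the log2 difference was 1.78 in donor 1 and -0.88 in donor 2 (exact permutation p = 1). GFP clones took 35.4% and 46.6% in donor 1 and 42.6% and 41.0% in donor 2 (exact permutation p = 1), and mCHERRY clones 42.6% and 47.0%, and 51.3% and 47.7% (exact permutation p = 1). No library thus had a strain difference of the same sign in both donors. BFP_Barcode_97773 alone made up 7.54% of PTPRCA spleen in donor 2. The largest clone of each library was then left out of each sample. BFP had 32.6% of the remaining NSG reads and 7.41% of the PTPRCA reads in donor 1, and 11.2% and 8.35% in donor 2. This share was higher in NSG in both donors. GFP had 7.24% and 35.1% in donor 1 and 0.626% and 4.13% in donor 2, lower in NSG in both. mCHERRY had 60.2% and 57.5% in donor 1 and 88.2% and 87.5% in donor 2, slightly higher in NSG in both.

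By number of clones BFP was higher in NSG in both donors. There were 258 BFP clones of at least 100 CPM in NSG and 87 in PTPRCA spleen of donor 1, and 129 and 86 in donor 2. mCHERRY clones numbered 253 and 255 in donor 1 and 392 and 313 in donor 2. GFP clones were few and fewer in NSG, 11 and 14 in donor 1 and 4 and 7 in donor 2.

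The libraries also differed in how many of their clones were apart by strain, counted over clones of at least 100 CPM in either spleen and so open to the same effect of the choice of clones. In donor 1, 66.8% of 286 BFP clones were over 4-fold higher in NSG, against 44.4% of all clones, and 8.04% were higher in PTPRCA spleen, against 21.4%. In donor 2, 48.3% of 178 BFP clones were higher in NSG, against 39.5% of all, and 25.3% in PTPRCA spleen, against 19.6%. For mCHERRY the shares called higher in either strain (NSG, then PTPRCA) were 26.7% and 29.9% of 345 clones in donor 1, and 36.6% and 16.6% of 476 clones in donor 2. GFP clones leaned to PTPRCA, with 13 of 20 over 4-fold higher there and 6 in NSG in donor 1, and 6 of 9 and 2 in donor 2. The 6 GFP clones higher in NSG spleen of donor 1 were all below 1 CPM in its baseline, whereas 12 of the 13 higher in PTPRCA had at least 100 CPM there. Donor 2 did not show this split, with 1 of 2 GFP clones higher in NSG and 4 of 6 higher in PTPRCA at 100 CPM or more at baseline, and 1 and 2 below 1 CPM. Of BFP clones in NSG spleen, 57 of 258 in donor 1 and 37 of 129 in donor 2 were restricted to it, or 22.1% and 28.7% against 15.1% and 11.0% of all clones. The few GFP clones had 5 of 11 and 1 of 4, and mCHERRY clones 17 of 253 and 20 of 392.

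The last comparison asked which clones differed in both donors. Almost no barcode was abundant in both. Of 651 and 663 clones only 5 reached 100 CPM in spleens of both donors, and all 5 were GFP. The labels do not settle how such a barcode came to be in both donors, whether as 1 shared clone, by separate uptake in unrelated cells or otherwise. GFP_Barcode_52804 differed little, by log2 0.55 in donor 1 and 0.11 in donor 2. GFP_Barcode_52357 stood at 35169 CPM in NSG and 154359 CPM in PTPRCA spleen of donor 1, and at 246 and 16558 CPM in donor 2, lower in NSG in both. GFP_Barcode_69276 stood at 72.7 and 7461 CPM in donor 1, where the PTPRCA libraries gave 1602 and 13321 CPM, and at 0 and 428 CPM in donor 2.

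GFP_Barcode_18532 was listed at 0 in NSG and stood at 305 CPM in PTPRCA spleen of donor 1, and stood at 33.9 and 386 CPM in donor 2. Its value in PTPRCA spleen of donor 1 rested on a single library, the 2 libraries giving 0 and 610 CPM, whereas those of donor 2 gave 360 and 412 CPM. In marrow of donor 1 this clone ran the other way, at 113 CPM in NSG and 24.3 CPM in PTPRCA, and in marrow of donor 2 it was higher in PTPRCA, at 171 and 475 CPM. GFP_Barcode_40977 was the reverse, at 488 CPM in NSG spleen of donor 1 and 2691 CPM in that of donor 2. It was listed at 0 in both PTPRCA spleens, so that it was at least 1052-fold and 5054-fold higher in NSG. These limits cover the PTPRCA counts alone, and the 488 CPM of donor 1 could not be split by library. In NSG marrow GFP_Barcode_40977 was listed at 0 in donor 1 and stood at 11609 CPM in donor 2. It was the only barcode restricted to the same strain in spleens of both donors. A total of 0 barcodes were restricted to NSG in 1 donor and to PTPRCA in the other. Only the 5 barcodes of at least 100 CPM in both donors could enter these counts, which therefore say little about agreement between donors.

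Clone by clone over both donors, limma on log2(CPM + 10) called 0 of 1309 clones at an adjusted p below 0.05 (0% in either direction), and 0 had an unadjusted p below 0.05. Nearly every clone was present in 1 donor only, so that the donors set the spread in this fit. For GFP_Barcode_40977 its SE was 6.58 on the log2 scale, against 1.13 with donor as a block. A donor block, which left 1 residual degree of freedom per clone, gave 5 calls, 1 higher in NSG (0.0764% of clones) and 4 lower (0.306%). The clone higher in NSG was GFP_Barcode_40977, by log2 6.86 ± 1.13 (SE), with an adjusted p of 7.82e-07 from limma. The clones lower in NSG, with limma's log2 change, SE and adjusted p, were GFP_Barcode_69276 (-5.98 ± 0.90, 6.65e-08), GFP_Barcode_52357 (-4.08 ± 0.67, 7.82e-07), BFP_Barcode_97773 (-3.84 ± 0.90, 0.00705) and GFP_Barcode_98919 (-2.79 ± 0.73, 0.0338). The SEs and adjusted p of these 5 calls rest mostly on spread that limma borrows from other clones of similar level. They do not measure a clone's own spread between the donors. GFP_Barcode_52357, for example, differed by log2 -2.13 in donor 1 and -6.02 in donor 2. BFP_Barcode_97773 differed in donor 2 only, and was at 0.131 CPM in NSG spleen of donor 1, so that its call does not rest on both donors. GFP_Barcode_98919 was low in spleens of donor 2, at 2.38 CPM in NSG and 27.0 CPM in PTPRCA. In marrow it went the other way in both donors, at 29908 CPM in NSG and 9653 CPM in PTPRCA in donor 1, and 66.9 and 22.9 CPM in donor 2. With the other 6 samples in the fit as well, the block fit called GFP_Barcode_40977 alone (adjusted p = 0.025 by limma).

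On the scale of single clones 11 of the 1309 barcodes were over 4-fold apart in the same direction in both donors, and 0 in opposite directions. Nearly every clone was present in a single donor and could not enter this count. The list was made after the values were seen. The 6 higher in PTPRCA spleen were all GFP, namely GFP_Barcode_52357, GFP_Barcode_69276, GFP_Barcode_18532, GFP_Barcode_3138, GFP_Barcode_7083 and GFP_Barcode_113643. GFP_Barcode_7083 stood at 2.10 CPM in NSG and 370 CPM in PTPRCA spleen of donor 1, and at 0.112 and 57.9 CPM in donor 2. The 5 higher in NSG were GFP_Barcode_40977, mCHERRY_2_Barcode_489379, BFP_Barcode_100420, BFP_Barcode_125517 and BFP_Barcode_354313. Each of these 5 was listed at 0 in both PTPRCA spleens and in both baselines. In NSG marrow mCHERRY_2_Barcode_489379 and BFP_Barcode_125517, like GFP_Barcode_40977, were listed at 0 in donor 1. In donor 2 they stood there at 610 and 517 CPM. BFP_Barcode_100420 stood in NSG marrow at 76.7 CPM in donor 1 and 0.812 CPM in donor 2, and BFP_Barcode_354313 at 119 and 60.3 CPM.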

How the data were processed

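Genomic DNA of sorted viable leukaemia cells was the source of the barcode libraries. Per the labels' protocols, lysates were split into technical replicates and barcodes amplified in 2 rounds of PCR. Bowtie 1.2.2 and R 3.6 are named in the submitters' processing notes; the sources used here do not give the barcode reference, the filters or how replicates were combined. The authors deposited CPM values, barcode reads scaled to 1000000 per column. Columns were matched to samples by donor, strain and tissue in their names.

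Low CPM values are sums of whole multiples of 2 or 3 steps, and each spleen column is thus a mean over as many libraries. These gave whole read totals (largest distance 0.00972 reads). In the 3 columns averaging 2 libraries, those up to 1000 CPM had 1 solution in 99.7% to 99.9% of cases, and for NSG spleen of donor 1 values up to 50 CPM in 98.2%. The split was checked on simulated data. Intervals and limits cover counting error alone, because amplified reads that lack molecular identifiers do not stand for independent molecules. For shares of a library or of the largest clone the 95% Wilson interval reached at most 0.0412 percentage points to each side. As no single step gives whole reads, no count model was run.

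Computations used limma 3.58.1 in R 4.3.3, and pandas 2.3.3 and numpy 2.4.6 in Python 3.11.15. Samples were grouped by strain and tissue, with donor as replicate. The number in a sample's label is its donor mouse, and it pairs the samples; deviations from the group means correlated at 0.78 within a donor (1309 clones). Strain differences were tested by swapping NSG and PTPRCA within each donor (two-sided exact permutation, smallest p 0.5) and, per clone, with limma (lmFit, eBayes with a trend) on log2(CPM + 10) over the 4 spleen samples, with Benjamini-Hochberg adjustment over the 1309 clones. On simulated data with a noise SD of 0.5 the fit with a donor block found most of the known changes. The fit without it found none when donors were as far apart as here, so that its lack of calls says nothing about whether clones differed. In the data the SEs with the block were larger, at 0.67 to 1.13 for the 5 called clones. Many other clones had still larger SEs, 1 of them 4.19. The share of changes found at such SEs was not tested. Named clones are the 10 largest per spleen, the 5 largest restricted clones and the 5 largest differences per donor and direction, clones of 100 CPM in both donors and limma calls; the 11 clones over 4-fold apart in both donors, and the 14 of the closing section, were chosen after their values were seen. Clones, lists and tests were chosen with earlier results of these data known. Alternatives were other CPM limits, pseudocounts, folds, indices and list sizes, removal of the largest clones, all 10 samples, donor as a block and each donor or sample left out; the library-by-library calls and the calls over clones of 100 CPM in both spleens were added after the data were seen.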

Additional observations from a re-analysis of the deposited data

Results flagged for a closer look

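The inverse Simpson number was lower in NSG spleen than in PTPRCA spleen for both donors (mean log2 difference -0.22), whereas in marrow it was higher in NSG for both (0.068). The log2 differences in spleen were -0.32 in donor 1 and -0.11 in donor 2, and in marrow 0.12 and 0.016. This difference between the tissues was not tested.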

How the results depend on the processing

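Of 93 values recomputed under another setting, 7 changed sign and 21 others moved (counts by over 1.5 times, untested values by over 1 SD). The remaining 65 did neither, but some of them could not change. Dropping the pairing altered the p alone. The limma fits without a donor block stayed at 0 calls, and that fit found none on simulated data with donors this far apart. The 65 are therefore not a measure of stability. Tested values among the 65 kept their sign, not always their size: evenness went from 0.035 to 0.0015 over clones of 1000 CPM, the effective number from log2 0.66 to 1.52 without the largest clone, restricted clones from 1.75 to 1.14 at a limit of 10 CPM, and, without the largest clone of each library, the BFP and GFP shares from 0.45 and -0.17 to 1.28 and -2.50. By sign: the effective number turned to log2 -0.22 as an inverse Simpson number, the share of the 10 largest clones (-11.96 percentage points) to 6.48 for the largest clone alone, and the mCHERRY share to log2 0.039 without the largest clone of each library. The shares of reads per library rest on single donors: leaving out a donor gave log2 -0.88 to 1.78 for BFP, -0.40 to 0.055 for GFP and -0.14 to 0.10 for mCHERRY. Rank correlation over clones of 1000 CPM was -0.13 in donor 1 and 0.067 in donor 2, over clones of 100 CPM in both spleens 0.39 and 0.36, and Bray-Curtis similarity 0.48 and 0.67. Of donor 2, 50% of the 10 or 50 largest clones were shared. limma called 5 clones with donor as a block (replicate block, 53 at an unadjusted p below 0.05) and 1 over all 10 samples with the block. Leaving out each spleen sample in turn gave 0 calls, with 0 to 6 at an unadjusted p below 0.05. Counts apart by strain fell to 116 and 74 in donor 1 (NSG, PTPRCA) and 117 and 44 in donor 2 with a pseudocount of 100 CPM, and to 188 (donor 1, NSG), 151 and 55 (donor 2) at 10-fold; at 2-fold donor 2 had 199 in PTPRCA. Over clones of 100 CPM in both spleens they were 36 and 29, and 46 and 24, fewer clones being compared. The causes of the other changes were not tested. Without pairing (no replicate block) the exact permutation p was 0.333 to 1, and neither this test nor the paired one can reach 0.05 here, so that they say nothing about stability. Restricted clones of 1000 CPM numbered 8 and 4 in donor 1 and 4 and 0 in donor 2 (NSG, PTPRCA), so that no ratio could be had. Depth limits restriction to 0.349 to 0.532 CPM (3 reads).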

Other observations

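Among barcodes of at least 10 CPM in spleens of both donors, those seen in neither baseline were more numerous in NSG than in PTPRCA. In NSG spleens of both donors 16 barcodes had at least 10 CPM, and 14 of them were listed at 0 in both baselines and were below 1 CPM in both PTPRCA spleens. By the same steps 10 barcodes had at least 10 CPM in PTPRCA spleens of both donors, and 1 of them was listed at 0 in both baselines and was below 1 CPM in both NSG spleens. Of the 14, 8 were BFP, 5 mCHERRY and 1 GFP, and together they took 0.380% of NSG spleen reads in donor 1 and 0.352% in donor 2. Their levels ran from 24.8 to 2101 CPM (median 69.8) in donor 1 and from 14.7 to 2691 CPM (median 54.2) in donor 2, the highest being mCHERRY_2_Barcode_805948 in donor 1 and GFP_Barcode_40977 in donor 2. In NSG marrow 5 of the 14 had at least 10 CPM in donor 1 and 9 in donor 2 (11 in 1 or both), and 13 of the 14 were below 1 CPM in both PTPRCA marrows. This count was made after the values were seen and was not tested.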
